A study of Mus musculus with 20 samples.

Results

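Leukocytes leave the blood through a chain of adhesion steps, and 9 genes of that chain were followed here in ribosome-bound RNA of mouse epididymal adipose tissue (epiAT). They were chosen by symbol, through the Ensembl identifier of their row in the gene counts table, and make up 9 of the 46078 genes in it. The genes are Itgam, Itgb2, Itgal and Itga4 (integrin chains), Selplg (the selectin ligand PSGL-1), and Icam1, Vcam1, Selp and Sele (vascular adhesion molecules). All mice were AdipoERCre x NuTRAP on the background the labels give as C576BL6, and all had received tamoxifen 2 times at an age of 4 to 5 weeks, chow controls included. The tamoxifen-inducible Cre is driven in adipocytes, where it switches on a GFP tag on ribosomes, and translating ribosome affinity purification with sequencing (TRAP–seq) then reads the RNA pulled down with that tag from snap-frozen whole tissue. In the short arm, H mice were 18 weeks old after 12 weeks of high-fat diet (HFD), and C mice were their chow controls (n = 3 each). HC mice were 26 weeks old after 12 weeks of HFD and 8 weeks of chow for weight loss (WL), with CC_s as chow controls (n = 3 each). In the long arm, HH mice were 31 weeks old after 25 weeks of HFD and were compared with CC_l, and HHC mice were 39 weeks old after 25 weeks of HFD and 8 weeks of chow and were compared with CCC (n = 2 each).

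Integrins are pairs of an alpha and a beta chain. Itgb2 encodes the beta chain that leukocytes share among several integrins, Itgam its alpha partner on macrophages, monocytes and neutrophils, and Itgal its alpha partner on lymphocytes and other leukocytes. Itga4 encodes the alpha chain that, with the beta chain of Itgb1, binds VCAM1, while ICAM1 is the ligand of the integrins that contain the Itgb2 chain. P-selectin (Selp) and E-selectin (Sele) are displayed by activated endothelium, P-selectin also by platelets, and both slow leukocytes in the blood by holding PSGL-1. In obese adipose tissue this system is best known for its part in the entry of monocytes that become tissue macrophages, and adipocytes are not the cells in which it is usually studied.

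In the mm10 genome Itgam lies on the plus strand at chr7:128062640-128118491 and Itgal, also on the plus strand, at chr7:127296260-127335138. Itgb2 lies at chr10:77530252-77565708, Itga4 at chr2:79255426-79333123 and Icam1 at chr9:21015985-21028817, all on the plus strand. Selp (chr1:164115264-164150026) and Sele (chr1:164048234-164057677) are plus-strand neighbours, and Vcam1 (chr3:116109949-116129688) and Selplg (chr5:113818536-113832644) lie on the minus strand. All 9 are protein-coding genes. In the annotation used here, 68.7% of the exon bases of Itgam are shared with Gm49368 on the same strand. Gm49368 had no row among the 46078 genes counted, and whether it was part of the counting is not known. Genes on the opposite strand share 8.04% of the exon bases of Itga4 (Cerkl), 11.7% of those of Icam1 (Gm47079), 0.688% of those of Vcam1 (Gm43109), and 4.21% (Gm16587) and 9.93% (Gm16548) of those of Selp. Of these genes, Gm47079 had no row either. The counting was not stated to use strand, and reads of these overlaps cannot be told apart.

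Promoters of 5 of the 9 genes (Itgam, Itga4, Icam1, Selp and Sele; 250 bases before to 50 after the start) were held in the RefSeq table used, on GRCm38.p6. Those of Itgam and Selp are shown because these genes had the 2 largest log2FC of the group after 25 weeks of HFD. Capitals mark GAGGAA, the core of the site of the myeloid factor PU.1, or its reverse complement TTCCTC. The Itgam window (chr7:128062390-128062689, plus strand) held 3 such matches and the Selp window (chr1:164115014-164115313, plus strand) held none.
Itgam: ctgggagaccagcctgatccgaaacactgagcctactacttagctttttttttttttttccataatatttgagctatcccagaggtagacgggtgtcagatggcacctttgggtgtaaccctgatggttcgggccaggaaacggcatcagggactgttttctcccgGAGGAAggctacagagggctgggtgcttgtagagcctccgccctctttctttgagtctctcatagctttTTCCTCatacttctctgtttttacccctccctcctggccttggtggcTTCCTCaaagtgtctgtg
Selp: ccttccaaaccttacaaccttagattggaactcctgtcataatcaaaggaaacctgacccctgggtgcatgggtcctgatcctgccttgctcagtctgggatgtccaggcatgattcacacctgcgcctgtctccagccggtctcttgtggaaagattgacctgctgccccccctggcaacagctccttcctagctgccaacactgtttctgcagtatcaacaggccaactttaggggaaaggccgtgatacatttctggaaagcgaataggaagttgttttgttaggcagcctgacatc
The matches in Itgam lie at bases 167 to 172, 236 to 241 and 283 to 288 of the window. Sele held 1 match, and Itga4 and Icam1 held none. GAGGAA was present on either strand in 28.3% of the 32851 promoters of the same length. The NF-kB consensus was searched on both strands only as GGGRNNYYCC, where R is A or G, Y is C or T and N is any base. This exact form was in none of the 5 windows and in 8.46% of all. Sites that depart from it were not searched for, so its absence does not show that a window lacks an NF-kB site. A match is only a run of letters in this window, and no promoter was linked to a measured level here.

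Library totals ran from 10710277 to 36738954 counts, and 8 of the 9 genes were among the 21464 genes that passed the filter on low counts. Levels are given per mouse as CPM, counts scaled to library size, after TMM scaling. Summed adipocyte markers reached 15267 to 130968 CPM, so the labelled cell type was present in each library, but markers of cells that should carry no tag were present too. The 8 macrophage markers summed to 188 to 3508 CPM and the 8 endothelial markers to 118 to 2401 CPM, with no marker of either list at a median under 1 CPM. Of the other lists, neutrophil markers summed to 1.96 to 232 CPM, with S100a9, Ly6g, Retnlg, Cxcr2 and Mmp8 at medians under 1 CPM. Lymphocyte markers summed to 3.18 to 111 CPM, with Cd3e, Cd8a and Ncr1 at medians under 1 CPM, and platelet markers to 31.1 to 179 CPM, with Gp9, Gp1bb and Gp6 at medians under 1 CPM. Mesothelial markers summed to 36.3 to 366 CPM and adipocyte progenitor markers to 411 to 4907 CPM. Some libraries stood apart. HC mouse 3 had the lowest adipocyte sum (15267 CPM) and a spermatid marker sum of 452 CPM. CC_l mouse 1 had a spermatid sum of 3256 CPM, against at most 92.5 CPM in the remaining 18 libraries. HHC mouse 1 had the highest lymphocyte sum (111 CPM, next 39.6 CPM). The nuclear-retained RNAs Malat1, Neat1 and Kcnq1ot1 summed to 20337 to 37510 CPM in C mice 1 and 2, HC mouse 3 and CCC mouse 2, and to 2776 to 12392 CPM elsewhere. The members' values are given without these libraries where the omission changed a call, the direction or the size of a called change. In such pooled RNA, fewer cells of a type and less RNA per cell cannot be told apart.

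**Figure D1:**
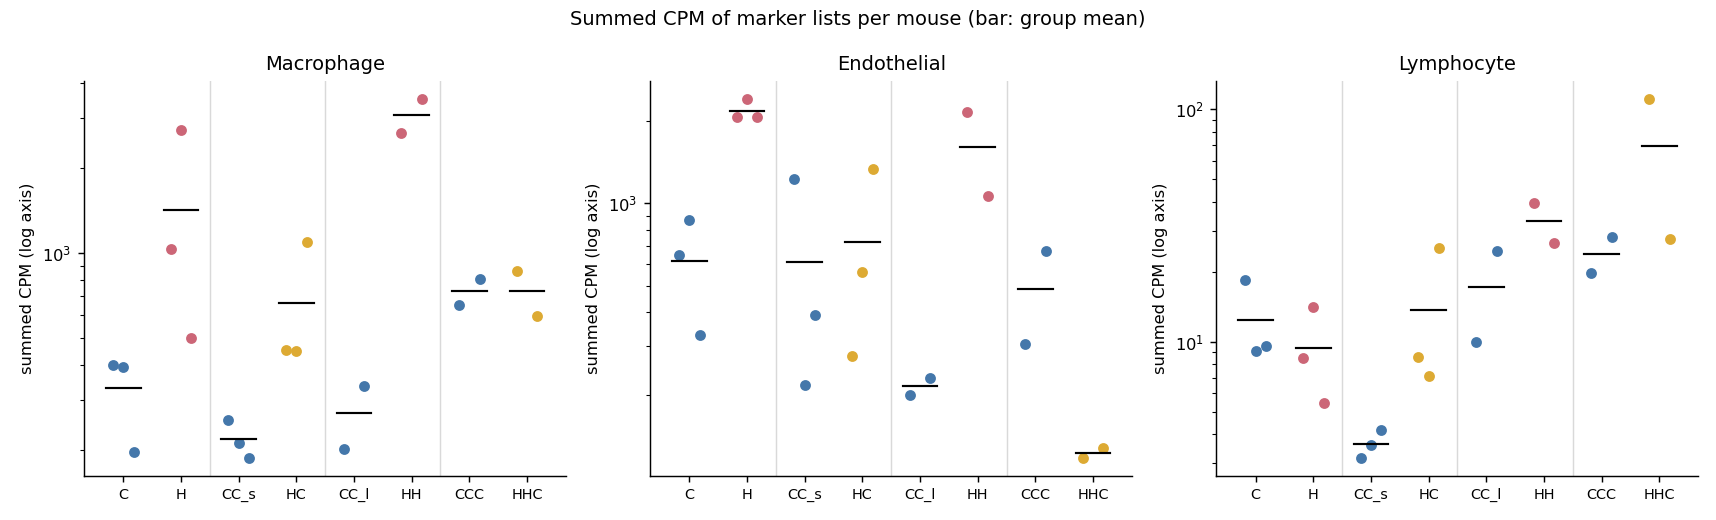
Summed CPM (log axis) of the macrophage, endothelial and lymphocyte marker lists in each of the 20 mice, by group, with blue points for chow, red for HFD and yellow for HFD then chow, and a bar at the group mean. The HH mice held 2647 and 3508 CPM of macrophage markers, the HHC mice the lowest endothelial sums (118 and 127 CPM), and HHC mouse 1 the highest lymphocyte sum (111 CPM).

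Among chow mice of the C group, Vcam1 had the highest level per kb of exon (median 3.26 CPM per kb), followed by Icam1 (2.61), Selplg (2.58), Itgam (2.58) and Itgb2 (2.24), whose ranges over the 3 mice overlapped. Selp (1.11 CPM per kb), Itga4 (1.04) and Itgal (0.900) came next, overlapping one another but lying below Itgb2 in each mouse range. The order differed between groups. Itgb2 held rank 5 in C and CC_s but came first in the other 6 groups, the chow groups CC_l (median 6.72 CPM per kb) and CCC (9.59) included. In H mice Itgb2 was at a median of 17.6 CPM per kb (range 4.53 to 45.0), and in HH mice it held 47.8 and 52.0 CPM per kb, above the next gene, Selplg, at 9.97 and 12.5 CPM per kb. Selplg, Vcam1 (median 11.1) and Itgam (10.8) overlapped in HH, as did Itgam and Icam1 (9.72). Itgal stayed last of the 8 in C, H, CC_s, HC and HH, while in CC_l, CCC and HHC the last place was that of Selp (0.175 CPM per kb in HHC). With each gene's longest coding transcript as the length, Vcam1 was again first in C and CC_s and Itgb2 first in H, HC, CC_l and HH, but Itgb2 was no longer first in CCC and HHC, where it had led by exon length.

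**Figure D2:**
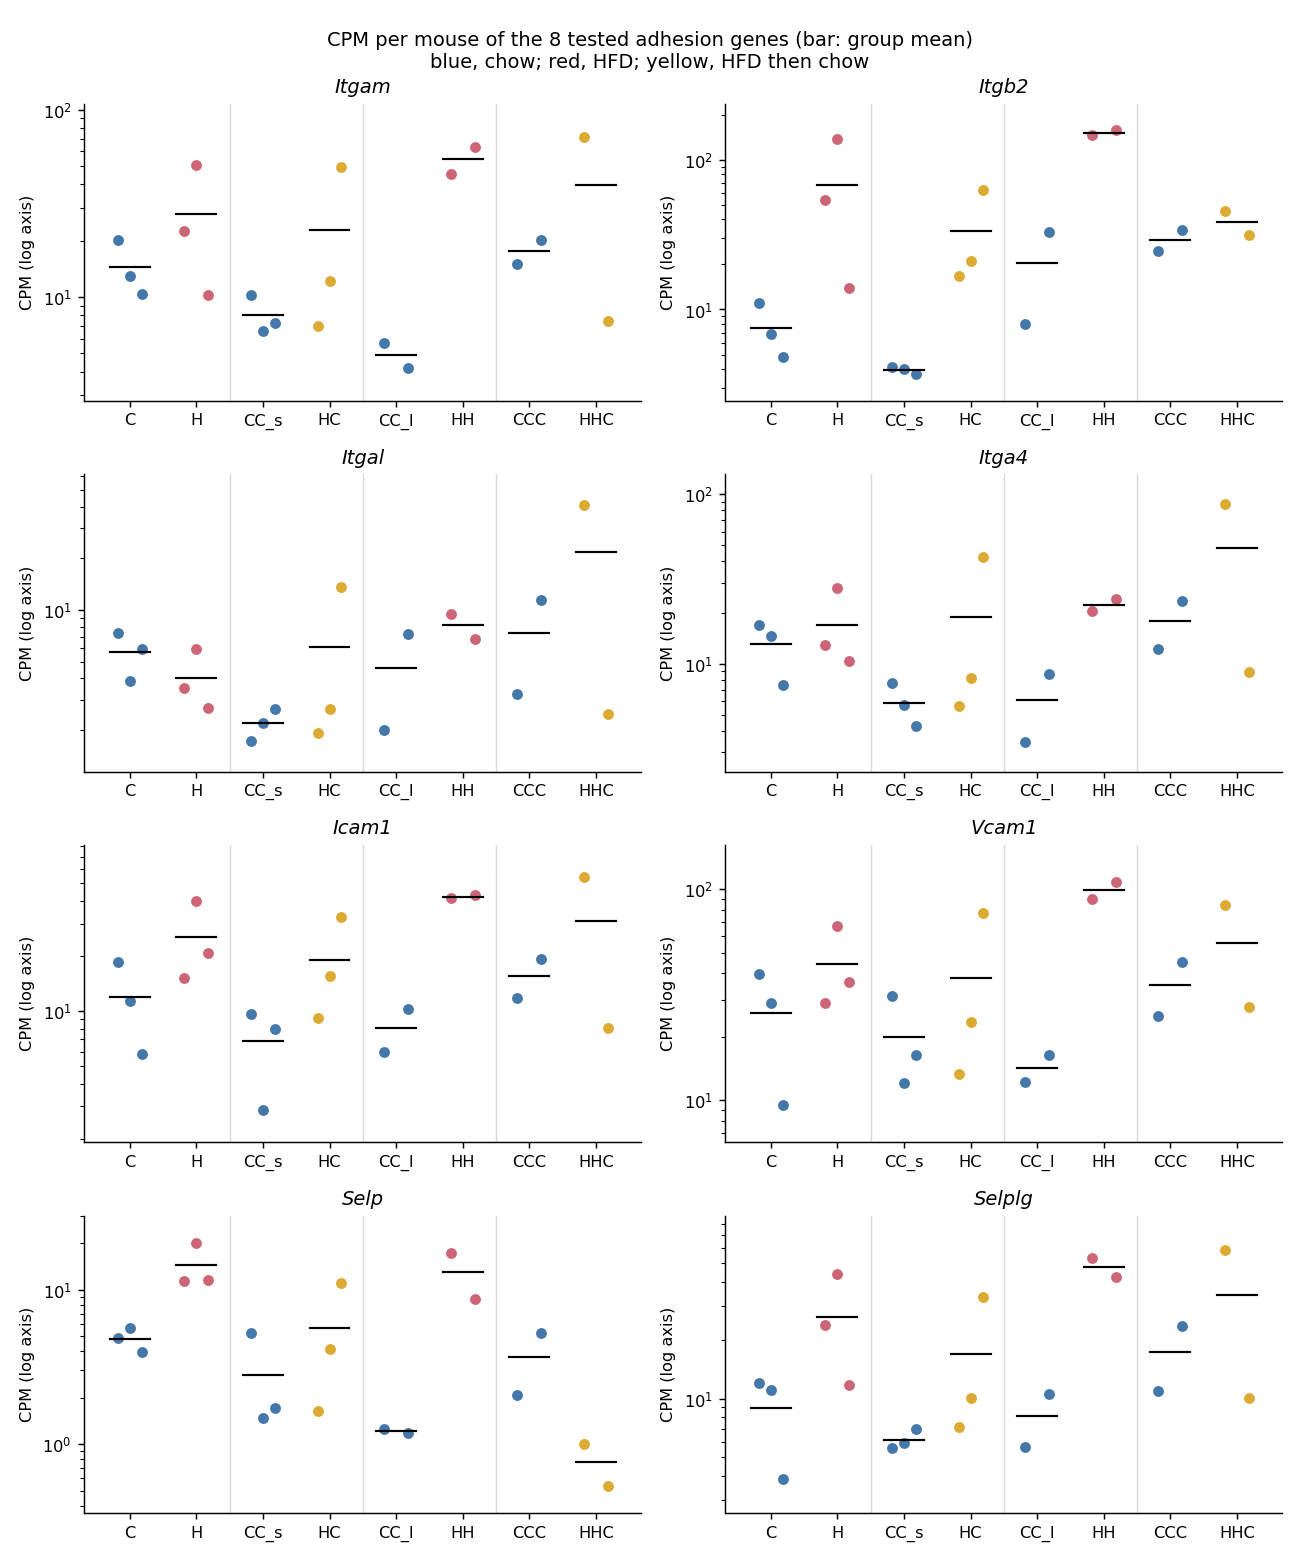
TMM-scaled CPM (log axes, each gene with its own range) of the 8 adhesion genes that passed the filter, in each of the 20 mice by group, with a bar at the group mean. Itgb2 lay higher in all H, HC and HH mice than in any of their chow controls, while for Itgam, Itga4 and Icam1 HHC mouse 1 lay above the CCC mice and HHC mouse 2 below them.

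E-selectin was close to absent. Sele had 71 counts over the 20 libraries, was at 0 in 13 of them and exceeded 3 counts in 6. The 3 counts used as a floor correspond to 0.0815 to 0.251 CPM, depending on the library, for counting error only. Its highest level was 0.979 CPM in H mouse 2 (36 counts), followed by CC_l mouse 1 (13 counts) and H mouse 1 (8 counts), while all CC_s, HC and HHC mice were at 0. Sele did not pass the filter and no difference between groups was tested.

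After 12 weeks of HFD the shared integrin beta chain had the largest log2FC of the 8 tested members. Itgb2 was at 11.001, 6.85 and 4.84 CPM in the C mice and at 53.8, 137 and 13.8 CPM in the H mice, so that the lowest H mouse still lay above the highest C mouse. The difference was 9.05-fold (log2FC 3.18 ± 0.71 SE, adjusted p = 0.0279, edgeR quasi-likelihood test). Itgb2 was the only 1 of the 8 tested genes called (nominal p below 0.01 and absolute log2FC of at least 1), against 3.57% of all tested genes called higher, and the only 1 with an adjusted p below 0.05, against 2.12% of all genes. It was still called without H mouse 2, at a log2FC of 2.16, and without C mouse 1 (3.59) or C mouse 2 (3.11), the libraries with the most nuclear-retained RNA in that group.

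Its alpha partners Itgam and Itgal were not called, while Itgax, a further alpha partner on macrophages and dendritic cells, was (log2FC 3.33, adjusted p = 0.0413). Itgam was at 20.15, 13.0 and 10.4 CPM in C and at 22.6, 50.8 and 10.3 CPM in H, with overlapping ranges (log2FC 0.95 ± 0.73 SE, adjusted p = 0.537). Itgal was at 7.30, 3.87 and 5.91 CPM in C and at 3.50, 5.93 and 2.69 CPM in H, and was the only tested member with a negative log2FC (-0.49 ± 0.85 SE, adjusted p = 0.812). Itga4 was at 7.52 to 16.9 CPM in C and 10.4 to 27.8 CPM in H (log2FC 0.39 ± 0.75 SE, and -0.16 without H mouse 2). None of Itgam, Itgal and Itga4 separated the groups. Selplg was at 12.0, 11.02 and 3.85 CPM in C and at 24.0, 43.8 and 11.8 CPM in H, where the lowest H mouse lay just under the highest C mouse (log2FC 1.57 ± 0.68 SE, adjusted p = 0.247). Selp was at 4.90, 5.66 and 3.94 CPM in C and at 11.4, 20.1 and 11.6 CPM in H. Its ranges did not overlap, yet the test gave no call (log2FC 1.57 ± 0.66 SE, adjusted p = 0.234). Itgb2 and Selp were the 2 of 8 members whose H mice all lay above all C mice, as did 13.4% of all tested genes. Icam1 (5.82 to 18.6 CPM in C, 15.2 to 39.9 CPM in H) and Vcam1 (9.49 to 39.5 CPM in C, 28.9 to 66.9 CPM in H) overlapped, with log2FC of 1.09 ± 0.65 SE and 0.77 ± 0.63 SE. The median log2FC of the 8 members was 1.02, beside -0.15 over all tested genes. Macrophage markers were called higher in 5 of 8, led by Cd68 (log2FC 3.88), Lyz2 (3.06) and Adgre1 (2.48), and summed to 197 to 401 CPM in C and 498 to 2731 CPM in H. Adgre1 was not called without H mouse 2. Endothelial markers were called higher in 5 of 8, led by Tie1 (2.43), Cldn5 (2.38) and Cdh5 (2.05), and summed to 331 to 869 CPM in C and 2058 to 2401 CPM in H. Of the endothelial markers, only Tie1 was called in every fit that left out 1 mouse. Cldn5 was not called without C mouse 1, C mouse 3 or H mouse 1, and Cdh5 was called only without H mouse 1. Mesothelial markers had a log2FC under 0 in 6 of 6, with Wt1 (-3.19) and Lrrn4 (-1.46) called, and nuclear-retained RNAs in 3 of 3, with Neat1 (-2.996) called. When 1 mouse was left out, Wt1 was called in every fit and Lrrn4 only without C mouse 3. The neutrophil sum was 1.96 to 9.31 CPM in C and 53.7 to 232 CPM in H, but S100a8 (called, log2FC 5.36) alone was at 52.4 to 228 CPM in H. Its partner gene S100a9 was at 0.152 to 0.598 CPM in H, and no other neutrophil marker was called. The platelet sum was 34.7 to 69.3 CPM in C and 58.6 to 98.0 CPM in H. The part of these cells in the Itgb2 and Selp values was not tested.

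After WL from the shorter obesity, Itgb2 was again the gene called. It was at 4.10, 4.01 and 3.68 CPM in the CC_s mice and at 16.6, 21.0 and 63.0 CPM in the HC mice. Each HC mouse lay far above the narrow CC_s range (log2FC 3.09 ± 0.71 SE, 8.51-fold). The call was nominal only, since the adjusted p was 0.473, and no gene of the 21464 had an adjusted p below 0.05 in this comparison, in which 1866 had a nominal p below 0.05 and DESeq2 gave 272 adjusted calls. Itgb2 was 1 of 8 members called higher, beside 1.57% of all genes. Without HC mouse 3, the library with spermatid RNA and the lowest adipocyte sum, it was still called, at a log2FC of 2.25.

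The other 7 tested members had log2FC between 0.94 and 1.67 in HC and none was called, and in each of them HC mouse 3 was the highest of the 3 HC mice. Itgam was at 10.2, 6.59 and 7.23 CPM in CC_s and at 7.01, 12.1 and 49.2 CPM in HC, so that only mouse 3 lay far from the controls. Itga4 was at 7.68, 5.73 and 4.31 CPM in CC_s and at 5.60, 8.23 and 42.8 CPM in HC (log2FC 1.67 ± 0.77 SE, adjusted p = 0.571), and without HC mouse 3 its log2FC was 0.22. The same omission left 0.25 for Itgam, 0.05 for Itgal, 0.04 for Selp and -0.11 for Vcam1. Icam1 was at 9.66, 2.87 and 7.99 CPM in CC_s and at 9.21, 15.5 and 32.6 CPM in HC (log2FC 1.49 ± 0.66 SE, adjusted p = 0.569), with 0.85 left without mouse 3. Selplg was at 5.56, 5.90 and 6.97 CPM in CC_s and at 7.15, 10.0 and 33.5 CPM in HC, and did not overlap (log2FC 1.46 ± 0.68 SE, adjusted p = 0.571), with 0.48 left without mouse 3. Itgb2 and Selplg were the 2 of 8 members with all HC mice above all CC_s mice, as were 8.01% of all genes. The members' median log2FC was 1.47, beside 0.27 over all genes. Macrophage markers were called higher in 5 of 8 (Cd68 at log2FC 3.68, Fcgr1 at 2.54 and Adgre1 at 2.48 led them) and summed to 188 to 256 CPM in CC_s and 446 to 1088 CPM in HC. None of the 8 endothelial markers was called, with sums of 216 to 1229 CPM in CC_s and 276 to 1335 CPM in HC. Lymphocyte markers had a log2FC above 0 in 8 of 9, with Cd3g called higher (2.85), and summed to 3.18 to 4.18 CPM in CC_s and 7.15 to 25.4 CPM in HC. Progenitor markers were above 0 in 6 of 6, with Pdgfra called higher (1.62), and summed to 570 to 777 CPM in CC_s and 808 to 1797 CPM in HC. Without HC mouse 3, 3 macrophage markers (Cd68, Lyz2 and Csf1r) and Cd3g (2.00) were called, and Pdgfra (1.06) was not. The part of these cells in the Itgb2 value was not tested.

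After 25 weeks of HFD most of the tested members were called higher, and this change was not tested against that after 12 weeks. Itgam, Selp, Itgb2, Vcam1 and Selplg, 5 of the 8 tested members, were called higher in HH than in CC_l, beside 4.92% of all tested genes, and no member had an adjusted p below 0.05, beside 445 genes that did. Itgam was at 5.67 and 4.19 CPM in CC_l and at 45.6 and 63.0 CPM in HH (10.97-fold, log2FC 3.46 ± 0.98 SE, adjusted p = 0.0761). Selp was at 1.25 and 1.18 CPM in CC_l and at 17.2 and 8.72 CPM in HH (log2FC 3.41 ± 0.87 SE, adjusted p = 0.0526). For both genes the lower HH mouse lay well above the higher CC_l mouse. Itgb2 was at 8.05 and 32.9 CPM in CC_l and at 146 and 159 CPM in HH (log2FC 2.90 ± 0.86 SE, adjusted p = 0.0905), its highest level in any group. Vcam1 was at 12.2 and 16.3 CPM in CC_l and at 89.8 and 108 CPM in HH (log2FC 2.80 ± 0.81 SE, adjusted p = 0.0851). Selplg was at 5.61 and 10.6 CPM in CC_l and at 53.3 and 42.6 CPM in HH (log2FC 2.57 ± 0.86 SE, adjusted p = 0.133). In all 5 the groups were separated by a wide gap. Icam1, at 5.95 and 10.2 CPM in CC_l and 41.7 and 43.0 CPM in HH, lay just past the nominal threshold and was not called (log2FC 2.39 ± 0.83 SE, adjusted p = 0.148). Itga4 was at 3.48 and 8.71 CPM in CC_l and at 20.4 and 23.9 CPM in HH, separated but not called (log2FC 1.87 ± 0.95 SE, adjusted p = 0.319). Itgal, the alpha chain best known from lymphocytes, was at 2.01 and 7.20 CPM in CC_l and at 9.48 and 6.81 CPM in HH and overlapped (log2FC 0.83 ± 1.04 SE).

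Of the 8 members, 7 had both HH mice above both CC_l mice, as had 26.3% of all tested genes, and the members' median log2FC was 2.68, beside -0.23 over all genes. Leaving out a mouse sets an arm of 1 library against 2, with the spread taken from the other groups and the lone library assumed to vary alike. Without CC_l mouse 1, the library with the high spermatid sum, only Selp was called, and without CC_l mouse 2 only Itgb2. The log2FC without mouse 1 and without mouse 2 was 3.70 and 3.29 for Itgam, 3.46 and 3.40 for Selp, and 2.61 and 3.05 for Vcam1, close to the values with both. It was 2.22 and 4.27 for Itgb2 and 2.18 and 3.12 for Selplg. On leaving out either HH mouse, 4 members were called, with Selplg not among them. Macrophage markers were called higher in 6 of 8 (Adgre1 at log2FC 4.49, Fcgr1 at 3.93 and Cd68 at 3.90 led them) and summed to 201 to 338 CPM in CC_l and 2647 to 3508 CPM in HH. Of these markers, Fcgr1 was not called without CC_l mouse 1 or without HH mouse 2. All 8 endothelial markers were called higher, led by Emcn (3.43), Cldn5 (3.06) and Pecam1 (3.05), with sums of 199 to 231 CPM in CC_l and 1060 to 2144 CPM in HH, and 1 of them (Tek) was called without CC_l mouse 1. The platelet sum was 31.1 and 34.4 CPM in CC_l and 110 and 179 CPM in HH, of which Pf4, the 1 platelet marker called (2.45), made up 94.6 and 172 CPM. Itga2b (0.10), Gp9 (0.53) and Gp1bb (-0.18) were not called. Progenitor markers were called higher in 4 of 6, led by Col1a1 (3.47), Ly6a (3.18) and Dcn (2.93), of which Dcn was not called without CC_l mouse 1. Adipocyte markers had a log2FC under 0 in 7 of 8 (median -1.43) and summed to 58576 and 60674 CPM in CC_l and 26771 and 32020 CPM in HH. Of them Cfd was called lower (-2.40, adjusted p = 0.132 by edgeR), a call lost on leaving out any 1 mouse of these groups. The part of these cells in the members' values was not tested.

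After WL from the longer obesity no member was called in either direction, beside 0.447% of all genes called higher and 2.67% called lower in HHC. By edgeR 1 member (Selp) had a nominal p below 0.05, and DESeq2 and every other tool and scaling run with all mice gave 0 calls as well. The 2 HHC mice differed widely for most members. Itga4 was at 86.9 CPM in HHC mouse 1 and 8.99 CPM in mouse 2, with 12.2 and 23.3 CPM in the CCC mice between them. Itgal was at 41.1 and 2.48 CPM in HHC and at 3.23 and 11.4 CPM in CCC. For both alpha chains mouse 1 lay above and mouse 2 below the controls. Itgam was at 71.7 and 7.43 CPM in HHC and at 15.1 and 20.1 CPM in CCC. Icam1 (54.1 and 8.08 CPM in HHC, 11.8 and 19.2 CPM in CCC) and Selplg (58.7 and 10.0 CPM in HHC, 10.99 and 23.8 CPM in CCC) had the same split, with mouse 1 above and mouse 2 below both controls. Vcam1 was at 84.0 and 27.5 CPM in HHC and at 25.2 and 45.0 CPM in CCC. HHC mouse 1, the library with the most lymphocyte RNA, held the highest level of the 20 libraries for Itgam, Itgal, Itga4, Icam1 and Selplg. Without it, the log2FC turned to -1.25 for Itgam, -1.57 for Itgal, -0.99 for Itga4, -0.95 for Icam1, -0.36 for Vcam1 and -0.80 for Selplg, from 1.17, 1.57, 1.43, 1.00, 0.67 and 0.98 with it. The lymphocyte sum was 111 and 27.7 CPM in HHC and 19.7 and 28.2 CPM in CCC, with no lymphocyte marker called. The T cell genes Cd3e and Cd8a were at 20.4 and 12.9 CPM in HHC mouse 1 and at no more than 3.27 and 3.63 CPM in any other library. The part of lymphocytes in these values was not tested. The members' median log2FC was 0.99, beside -0.06 over all genes.

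Itgb2 and Selp behaved differently from these 6. Itgb2 was at 45.8 and 31.6 CPM in HHC and at 24.4 and 34.1 CPM in CCC and overlapped (log2FC 0.40 ± 0.80 SE, adjusted p = 0.905). Selp was at 1.01 and 0.539 CPM in HHC (12 and 10 counts) and at 2.09 and 5.22 CPM in CCC (35 and 95 counts). The HHC levels of Selp were the lowest of the 20 libraries. Both HHC mice lay below both CCC mice, as they did for 20.3% of all genes, and the difference was not called (log2FC -2.25 ± 0.86 SE, adjusted p = 0.360). With CCC mouse 2 as the lone control, its spread taken from the other groups, Selp was called (log2FC -2.77). With CCC mouse 1 as the lone control, that is without the library with more nuclear-retained RNA, it was not (-1.45). No member had both HHC mice above both CCC mice, beside 8.49% of all genes. Macrophage marker sums were 599 and 863 CPM in HHC and 653 and 806 CPM in CCC. Cd163 was called lower (log2FC -1.49), but not without CCC mouse 2 or either HHC mouse. Endothelial sums were 118 and 127 CPM in HHC and 307 and 666 CPM in CCC, with Tie1 (-2.73) and Tek (-2.12) called lower. Neither of them was called without CCC mouse 2 or HHC mouse 1, and Tie1 was not called without HHC mouse 2. All 6 mesothelial markers (median log2FC -1.78) and 5 of 6 progenitor markers (median -1.02, none called) were under 0 too. The mesothelial marker Lrrn4 was called (-1.82), but not without CCC mouse 2 or either HHC mouse. Of the nuclear-retained RNAs, Kcnq1ot1 was called lower (-3.37), at 38.4 and 12.6 CPM in HHC and 91.9 and 435 CPM in CCC. The part of these cells and RNAs in the Selp value was not tested.

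**Figure D3:**
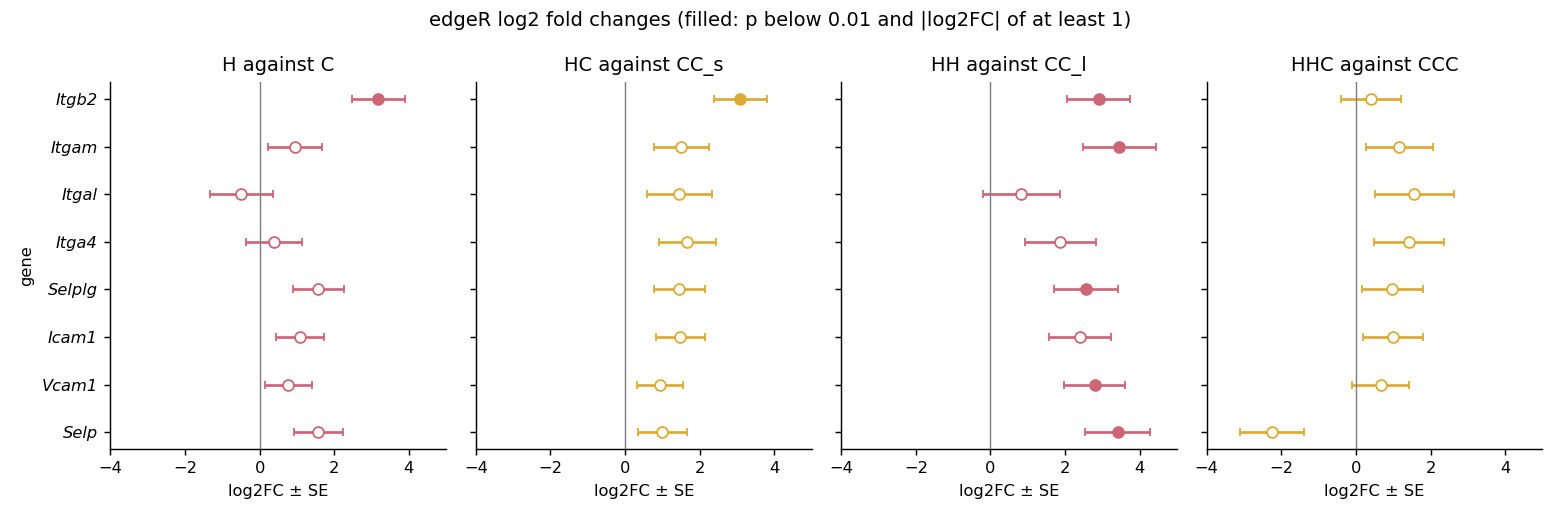
log2FC with SE of the 8 tested genes in the 4 comparisons with the matched chow group (edgeR, 20 libraries), with filled points where the nominal p was below 0.01 and the absolute log2FC at least 1. Itgb2 was called in H, HC and HH, Itgam, Vcam1, Selp and Selplg in HH, and none in HHC, where Selp was at -2.25.

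Whether an obesity change differed from the change left after WL was tested directly, as the difference between the 2 log2FC. Between H and HC no member had an adjusted p below 0.05, and none a nominal p below 0.05. For Itgb2 the difference was 0.09 ± 0.94 SE. Between HH and HHC, Selp was the 1 of 8 members that differed, by 5.66 ± 1.22 SE on the log2 scale (adjusted p = 0.0395), beside 0.815% of all tested genes. All HH mice lay above the CC_l mice and all HHC mice below the CCC mice. This call was lost in 7 of the 8 fits that left out 1 mouse, in which the difference was 4.88 to 6.20, the lowest without CCC mouse 2. For Itgb2 the difference was 2.49 ± 1.15 SE (adjusted p = 0.305), and for Vcam1 2.13 ± 1.09 SE and for Itgam 2.29 ± 1.27 SE (adjusted p = 0.360 and 0.399).

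Because the Itgb2 chain is displayed only with an alpha chain, its level per kb was set against the summed level per kb of Itgam and Itgal in the same mouse. The ratio was 0.704, 0.708 and 0.534 in C and 3.51, 4.09 and 1.85 in H. It was 0.587, 0.797 and 0.653 in CC_s and 3.23, 2.45 and 1.74 in HC. With these 2 alpha chains in the sum, all short-arm mice that had been on HFD lay above 1 and all their chow controls below it. In the long arm this split was not seen, with 1.84 and 5.59 in CC_l, 4.54 and 3.83 in HH, 2.30 and 1.95 in CCC, and 0.732 and 5.57 in HHC. Itgax was not in the sum. It was at 1.61 to 7.19 CPM in C and 20.4 to 61.6 CPM in H, and at 4.18 to 4.90 CPM in CC_s and 17.2 to 70.0 CPM in HC. Before scaling to length, Itgax exceeded Itgb2 in H mouse 3 (20.4 against 13.8 CPM) and HC mouse 3 (70.0 against 63.0 CPM). It also did so in HC mouse 1 (19.3 against 16.6 CPM) and in all CC_s mice. A ratio with Itgax in the sum was not computed, so the split at 1 is that of the 2 partners used. The samples of the 2 arms carry different prefixes in the labels, whose meaning is not given, and age, diet duration and what the prefix marks cannot be told apart between them.

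**Figure D4:**
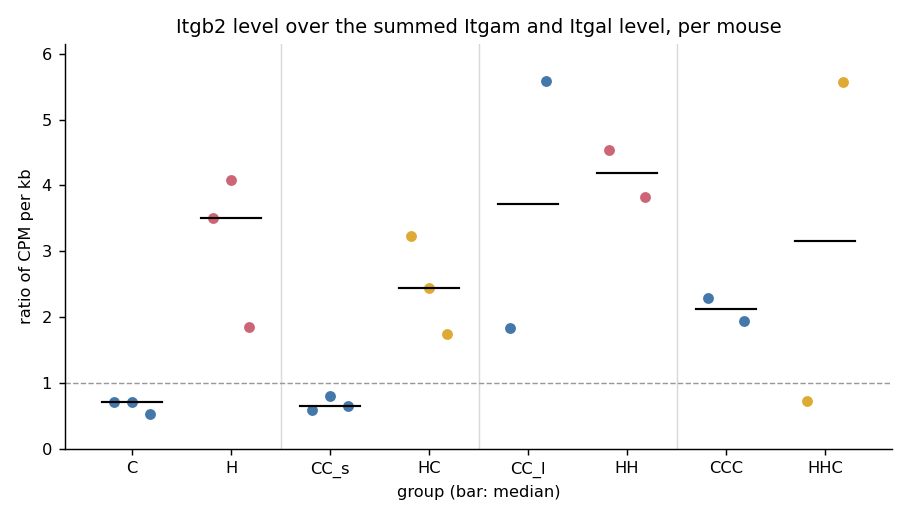
Level of Itgb2 over the summed level of Itgam and Itgal (ratio of CPM per kb of exon) in each of the 20 mice by group, with a bar at the group median and a dashed line at 1. The C and CC_s mice lay at 0.534 to 0.797 and the H and HC mice at 1.74 to 4.09, while the long-arm groups overlapped.

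Of 42 other adhesion genes, 41 had a row and 39 were tested. In H, 9 were called higher and 0 lower, in HC 1 higher and 0 lower, in HH 12 higher and 1 lower, and in HHC 0 higher and 2 lower, with median log2FC of 0.37, 0.28, 1.61 and -0.01. Among the 11 other integrin subunits, Itgad, Itgax (log2FC 3.33) and Itga5 (2.03) led the 5 called in H. Itgad, another alpha partner of Itgb2, was at 0 to 0.218 CPM in C and 0.576 to 6.47 CPM in H, and 2 of the 6 fits that left out 1 mouse called it. Itgax (2.94) was the 1 called in HC, and without HC mouse 3 it was not (1.97). Itga1 (2.65) and Itgb1 (2.39), the beta partner of Itga4, were called higher in HH, and both were also called without CC_l mouse 1. Itgae, the alpha chain of epithelium-lodged T cells, was called lower in HH (-2.83). It was at 20.2 CPM in CC_l mouse 1, 3.47 CPM in CC_l mouse 2 and 1.82 and 1.498 CPM in HH, and was not called without CC_l mouse 1 (-1.05). Itga6, a laminin receptor chain also made by endothelium, was called higher in H and HH and lower in HHC (-2.54). On leaving out 1 mouse, its H call was kept only without C mouse 1. Its HH call was lost without CC_l mouse 1 or HH mouse 1. Of 8 tested vascular and junctional molecules, Icam2 (2.39) and Cd34 (1.83) were called in H and 5 in HH, led by Icam2 (3.58), Jam2 (3.07) and Cd34 (2.89). Icam2, a ligand of the Itgb2 integrins made by resting endothelium, was at 64.2, 93.1 and 73.8 CPM in H and 11.01 to 20.4 CPM in C, and at 1.34 and 5.49 CPM in HHC and 13.9 and 26.0 CPM in CCC, where it was called lower (-2.52), but not without CCC mouse 2 (-2.004) or HHC mouse 1 (-1.87). Of the 11 genes of integrin activation, only Tln1, the talin that links integrins to actin, was called in H (1.56) and only Rap1b in HH (1.30). On leaving out 1 mouse, Rap1b was called in HH only without HH mouse 1. Of 9 genes of selectins and their ligands, Tpst1, which sulphates PSGL-1 among other proteins, was called in H (1.63) and HH (2.03), and Cd44 in HH (3.35). In HH, Cd44 was not called without CC_l mouse 1, and Tpst1 was not called without CC_l mouse 2.

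The 8 tested members did not share a single profile. Over the 20 libraries the Pearson r between log2 CPM of member pairs ran from 0.176 for Itgal and Selp to 0.931 for Icam1 and Vcam1, and the 7 pairs that held Selp all had an r of at most 0.587. The points share libraries, groups and depth, and r is a description. Among 16256 protein-coding genes, those closest to Itgb2 were the macrophage lysosomal gene Cd68 (r 0.978) and Slc11a1 (0.970), and those closest to Selplg were Ptprc (0.966), which encodes the pan-leukocyte antigen CD45, and Atp8b4 (0.957). Selp was closest to Abcc9 (0.962) and Adcy4 (0.962). Itgam was closest to Cmtm3 (0.955) and Bst1 (0.941), Itgal to H2-Ob (0.895), a gene of antigen presentation, and Prkcb (0.892), and Itga4 to Ptpn18 (0.950) and Laptm5 (0.949). Icam1 was closest to Oasl2 (0.929), an interferon-induced gene, and Fyn (0.928), and Vcam1 to Arhgdib (0.935) and Il10rb (0.923).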

How the data were processed

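TRAP–seq was run on epiAT of 20 mice in 8 groups. Per the labels and methods, the authors checked reads with FastQC 0.11.9, trimmed them with Trim Galore 0.6.6, aligned them to mm10 with HISAT2 2.2.1 and deposited raw counts per gene made with Subread 2.0.1. The annotation release, strand setting and counting of pairs are not given in the sources used here. Of the non-zero values of a library, 74.4 to 89.2% were even, so counts may be of single reads of a pair, and halved counts were tried.

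The 9 genes, the gene lists and the tests were chosen with earlier results of these data known. Counts were analysed with edgeR 4.0.16 in R 4.3.3 (filterByExpr, TMM, quasi-likelihood test, all 20 libraries in 8 groups, Benjamini-Hochberg over 21464 genes). Following the thresholds of the study, called means nominal p below 0.01 and absolute log2FC of at least 1. Each group was compared with the chow group of its age, and differences between effects were called at an adjusted p below 0.05. The common biological coefficient of variation was 0.680. CPM were taken over the tested genes after TMM scaling (floor 3 counts), CPM per kb divide by exon length, and log2 CPM used a prior count of 2. Members are named in all mice, at most the 3 called genes of a list with the largest change per comparison are named along with the 2 genes with the highest r per member. The nuclear-retained RNA list was added with values known. Fits were tested on simulated data. Alternatives were DESeq2 1.42.0, RLE scaling, no filter, the compared groups alone, a replicate block, halved counts, an adjusted threshold and leaving out each mouse.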

Additional observations from a re-analysis of the deposited data

Results flagged for a closer look

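The change of Selp in HH against CC_l differed from its change in HHC against CCC by 5.66 on the log2 scale (adjusted p = 0.0395, edgeR test of the difference). Selp was at 1.25 and 1.18 CPM in CC_l, 17.2 and 8.72 CPM in HH, 2.09 and 5.22 CPM in CCC, and 1.01 and 0.539 CPM in HHC, with 12 and 10 counts in the HHC libraries. The adjusted p was 0.00101 by DESeq2, and it was 0.0761 with RLE scaling and 0.0569 with halved counts. Of the samples in each pair, 2 of 2 HH mice lay above and 2 of 2 HHC mice below their controls.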

How the results depend on the processing

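Of 398 values of 35 single results under an alternative, 346 kept direction and side of the threshold, 12 passed it anew, 23 lost it and 17 changed sign. The count of members called in H was 2 with no filter (Selplg added) and 2 with only the compared groups (Selp added). In HC it was 5 with no filter and 0 at an adjusted p below 0.05. In HH it was 0 at an adjusted p below 0.05, and 1 to 4 on leaving out 1 mouse. In HHC it was 0 to 1 on leaving out 1 mouse. Members differing between HH and HHC numbered 0 with RLE scaling, halved counts or only the compared groups, 2 with no filter, and 0 to 1 on leaving out 1 mouse. The cause was not tested.

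The difference of Itgb2 between H and HC turned from 0.09 to -0.0801 by DESeq2, -0.0772 with RLE scaling, -0.0805 with no filter and -0.0044 with only the compared groups, and ran from -0.93 to 0.92 on leaving out 1 mouse. Leaving out 1 mouse, Itga4 ran from -0.16 to 0.65 in H and Vcam1 from -0.11 to 1.42 in HC. In HHC it gave -1.25 to 2.03 for Itgam, -1.57 to 2.75 for Itgal, -0.99 to 2.29 for Itga4, -0.95 to 1.80 for Icam1, -0.36 to 1.26 for Vcam1 and -0.80 to 1.75 for Selplg.

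With the replicate number as a block, members differing between HH and HHC numbered 0 and the Itgb2 difference between H and HC was -0.11. The members called were 1 in H, 1 in HC, 4 in HH (without Selplg) and 0 in HHC. The labels do not say whether the numbers pair mice. Correlations of same-numbered deviations from group means ran from -0.277 to 0.192. Of the short-arm mice only H mouse 3 correlated best with its own number. With groups of 2 or 3 mice these deviations depend on one another within a group, so they cannot decide whether mice were paired.

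Over all genes, with all mice, the alternatives called 175 to 1702 genes higher in HC (337 as reported) and 53 to 380 higher and 156 to 886 lower in HHC (96 and 573). RLE scaling moved the median difference between HH and HHC over all genes from -0.01 to -0.16. Leaving out each mouse was extended to the other gene lists after seeing the data, and the other adhesion genes called were then 5 to 9 higher in H, 0 to 3 in HC and 6 to 13 in HH. Groups of 2 mice limit the long arm, and depth limits Selp in HHC and Sele throughout.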

Other observations

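Chow controls differed among themselves. Itgb2 was at 3.68 to 11.001 CPM in C and CC_s, and at 8.05 to 34.1 CPM in CC_l and CCC, where age and the prefix in the labels differ too. These groups were not tested against each other.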
